A study of Mus musculus with 12 samples.

Results

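The cells described here are the unlabelled, GFP-negative mammary myoepithelial cells of 2 lineage-tracing mouse lines, 4 of the 12 libraries of the series, chosen by their labels alone. Both lines were on the C57BL/6 strain and carried the ROSAmTmG reporter, in which Cre recombinase switches a cell and its descendants from membrane tdTomato to membrane GFP. In 1 line Cre was driven by Myf5, a regulator of skeletal muscle progenitors that is also active in precursors of brown fat. In the other an improved Cre (iCre) was driven by Ucp1, the uncoupling protein of brown adipocytes. Cells were sorted from the mammary gland at day 10 of lactation with the gate Lin-, CD24+, CD29 high, where CD29 is integrin beta 1 (Itgb1), and each line gave 2 GFP-negative libraries. The same lines gave 2 libraries each of GFP-positive cells of the same gate, and 2 each of brown adipocytes that were GFP-positive and came from virgin females aged 8 weeks. A GFP-negative cell is one in which no recombination was seen at the sort, which is not the same as a cell whose lineage never used the driver. The labels do not say whether libraries came from separate animals or whether GFP-positive and GFP-negative cells were sorted from the same glands, so every p-value measures only the spread between these libraries.

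Myoepithelial cells form the basal layer of the mammary epithelium, lie on the basement membrane and wrap the milk-producing luminal cells. They carry basal keratins together with the contractile apparatus of smooth muscle, and in lactation they contract when oxytocin binds its receptor, which ejects the milk. Milk proteins themselves, the caseins and whey acidic protein, are made by luminal alveolar cells under prolactin, whose signal reaches the genes through STAT5.

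The 4 GFP-negative libraries held 22039599 and 20914305 counts in the Myf5 line and 30072983 and 31005011 counts in the Ucp1 line, within a series that ran from 11027738 to 32956480. They detected 15589, 17958, 19794 and 19213 genes with at least 1 count. The first Myf5 library stood apart. Its log2 levels correlated at r = 0.903 with the other Myf5 library, while the second Myf5 library correlated at 0.953 and 0.956 with the Ucp1 libraries and the Ucp1 pair at 0.988 (a description across 15071 genes measured in the same libraries). Between the Myf5 libraries 29.2% of the genes at 10 CPM (counts-per-million) or more differed by over 2-fold, against 0.630% between the Ucp1 libraries. Of 8187 genes at 10 CPM or more in each of the other 3 libraries, 498 lay more than 4-fold below the lowest other value in the first Myf5 library, and Ano8, Cited4 and Pou3f1 had 0 counts there. The inducible heat shock gene Hspa1b, for example, stood at 98.5 CPM in it against 3181, 6867 and 6769 CPM in the others. Hspa1b shares 68.0% of its 31-base words (stretches of sequence) with transcripts of other genes, among which reads can be split. Its level alone is therefore uncertain. Hspa1a, with 65.6% shared, stood at 917 against 1797, 4328 and 4742 CPM.

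The driver genes were near the floor in the unlabelled cells. Myf5 had 0 counts in both Myf5-line libraries and 2 and 0 counts in the Ucp1-line libraries. Ucp1 had 61 and 12 counts in the Myf5 line and 18 in each library of the Ucp1 line, against 9048 to 179375 counts in the brown adipocyte libraries. These are the native genes, and the level of the recombinase was not analysed here. The sort gene Itgb1 was present throughout, at 298 and 708 CPM in the Myf5 line and 1031 and 879 CPM in the Ucp1 line, and Cd24a at 86.9 and 70.9 against 129.8 and 102 CPM. CPM values are on 1 scale for all 12 libraries, with edgeR's TMM factors. Where 2 pairs of values stand on either side of the word against, the first pair is the Myf5 line and the second the Ucp1 line, each in the order of library 1 and library 2.

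The shared profile of the gate was led by milk protein RNA. On a per-length scale (counts over transcript length, scaled to the same total in each library), the nuclear protein-coding genes with the highest levels were beta-casein Csn2 at 69671 ± 19734, whey acidic protein Wap at 49956 ± 14744 and Csn1s2a at 37025 ± 12268 (mean ± SD, n = 4). Next came Csn1s2b, Csn3, the fatty acid binding protein Fabp4 and Csn1s1, then thymosin Tmsb4x, B2m, the matrix protein Sparc, Gpihbp1, which carries lipoprotein lipase on capillary endothelium, and smooth muscle actin Acta2 at 4414 ± 1047. Csn2 alone took 52151 and 24475 CPM in the Myf5 line and 48510.4 and 49875 CPM in the Ucp1 line. Summed over 15 milk protein genes, the share of all counts was 13.3% and 8.00% in the Myf5 line and 13.0% and 13.7% in the Ucp1 line, so that the second Myf5 library was low and the other 3 were alike. In the GFP-positive cells of the same gate the share was 2.43% to 4.77%, below every GFP-negative library, and in brown adipocytes it was 0.0186% to 0.103%. The 21 luminal markers summed to 2220 and 1647 CPM in the Myf5 line and 1253 and 1315 CPM in the Ucp1 line, an order unlike that of the milk protein share. Wfdc18, whose levels are given below, held a large part of this sum in the Myf5 line. The list's median log2 line difference (Ucp1 minus Myf5) was 0.20, higher in the Ucp1 line and thus unlike the sum. The part of luminal cells or of their RNA in the milk protein share was not tested, and in bulk libraries fewer cells of a type cannot be told apart from less RNA per cell.

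The milk protein genes Csn2, Csn1s1 and Glycam1 hold the letters TTCNNNGAA, the pattern read by STAT factors, in the 250 bases before their RefSeq start. They are 3 of the 11 milk protein genes matched by symbol in the RefSeq promoter table (GRCm38.p6). The share is 8.13% of all 27025 genes (the pattern reads the same on both strands). The 150 bases before each start are shown for these 3 genes because they hold the pattern. It was not found in this window of the other matched milk protein genes. The 3 are therefore not the 3 of highest level, and Wap and Csn1s2a stand above Csn1s1 in the shared profile. Glycam1 differs most between the lines among the milk protein genes. The pattern is in capitals. Csn2 lies on the minus strand at chr5:87699426-87699575, Csn1s1 on the plus strand at chr5:87666058-87666207 and Glycam1 on the minus strand at chr15:103565082-103565231.
Csn2: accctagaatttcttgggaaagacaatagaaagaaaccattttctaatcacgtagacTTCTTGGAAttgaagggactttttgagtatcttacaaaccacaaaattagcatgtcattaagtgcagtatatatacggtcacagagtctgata
Csn1s1: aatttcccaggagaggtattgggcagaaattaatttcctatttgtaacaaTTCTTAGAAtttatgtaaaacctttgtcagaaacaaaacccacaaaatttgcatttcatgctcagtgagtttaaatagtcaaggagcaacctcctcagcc
Glycam1: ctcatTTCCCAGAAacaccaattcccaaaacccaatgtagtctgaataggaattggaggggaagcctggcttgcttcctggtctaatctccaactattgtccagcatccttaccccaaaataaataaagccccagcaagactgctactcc
A match is a description of the letters and was not tested for binding.

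The defining markers of the labelled cell type were present. The contractile genes summed to 1.22% and 2.87% of counts in the Myf5 line and 1.70% and 1.87% in the Ucp1 line. Acta2 stood at 3996 and 5484 CPM in the Myf5 line and 4564 and 5907 CPM in the Ucp1 line, and calponin Cnn1, which binds actin and myosin, at 1885 and 2949.8 against 1163 and 1554 CPM. Among the basal keratins, Krt14 stood at 547 and 944 CPM in the Myf5 line and 625 and 659.6 CPM in the Ucp1 line, and Krt5 at 199 and 746 against 332 and 363 CPM. Both had 0 counts in all 4 brown adipocyte libraries, where 3 counts equal 0.190 to 0.272 CPM of the total counts. On the TMM scale used here this floor is higher, since the factors of these libraries are 0.612 to 0.777. The basal transcription factor Trp63 and the oxytocin receptor Oxtr were present in every GFP-negative library, at 30.0 and 74.4 against 31.1 and 18.0 CPM and at 142 and 685 against 341 and 356 CPM. Of the 23 basal markers, Dsg3 had 0 counts in all 4 libraries and the stem cell marker Lgr5 had 0 in both Myf5-line libraries and under 1 CPM in the Ucp1 line.

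Markers of other cell types were measurable in the gate. The 16 endothelial markers summed to 7939 and 8002 CPM in the Myf5 line and 9059 and 9502 CPM in the Ucp1 line, with Kdr, the main receptor for VEGF, at 961 and 1466 against 1674 and 1348 CPM. Among the luminal markers, Krt8, the main keratin of simple epithelium, stood at 275 and 410.5 against 351 and 360.4 CPM, while the hormone receptors Esr1 and Pgr stayed under 6 CPM in each library. The 20 immune markers summed to 1925 to 2657 CPM, most of it antigen presentation genes such as Cd74 at 1736 and 1405 against 1244 and 1179 CPM. The pan-leukocyte gene Ptprc stood at only 7.84 and 13.5 against 13.8 and 7.31 CPM. Fibroblast, pericyte and skeletal muscle markers differed between the lines and are described with that comparison.

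Against the brown adipocytes of the same lines, 5987 of 16117 genes tested were called at an adjusted p under 0.05 in edgeR's quasi-likelihood test with the line as covariate, 2786 higher (17.3%) and 3201 lower (19.9%) in the GFP-negative cells. All 15 milk protein genes and all 19 basement membrane genes were called higher, with 14 of 17 contractile, 16 of 21 basal and 14 of 20 luminal genes. Of 18 thermogenic genes tested, 15 were called lower and 1 higher, Fabp3, which binds fatty acids in muscle, brown fat and the lactating gland. Ucp1 fell by 12.61 on the log2 scale (adjusted p = 0.000116 in edgeR). Cell type, GFP, age and lactation all differ in this comparison and cannot be told apart.

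**Figure D1:**
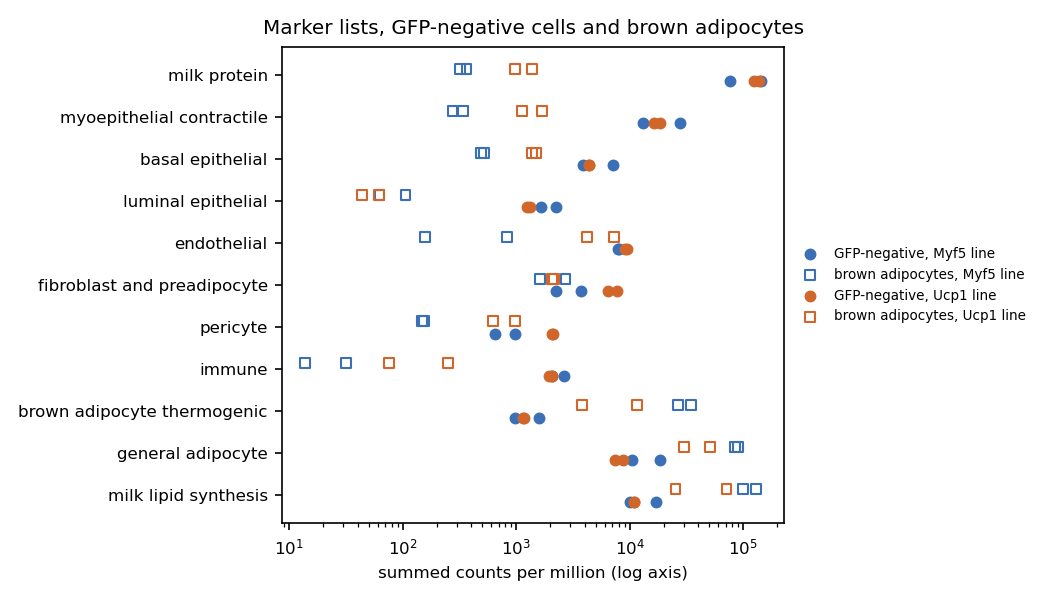
Summed CPM (log axis) of 11 marker lists in each GFP-negative library (filled circles) and each brown adipocyte library (open squares), coloured by line. The milk protein, contractile, basal, luminal and immune lists lay higher in every GFP-negative library than in every brown adipocyte library, and the thermogenic, general adipocyte and milk lipid lists lay lower.

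Several adipocyte and milk fat genes kept substantial levels in the unlabelled gate. In the general adipocyte list as a whole, 14 of 20 genes were called lower than in brown adipocytes in edgeR and 1 higher. Of all genes, 19.9% were called lower and 17.3% higher. Fabp4 stood at 16226 and 8880.2 CPM in the Myf5 line and 5720.5 and 7033 CPM in the Ucp1 line, and was not called against brown adipocytes (log2 -0.47, SE 0.546, adjusted p = 0.515 in edgeR). The lipid droplet protein Cidea stood at 668 and 403 against 465 and 381 CPM, although it was called lower than in brown adipocytes (log2 -2.64, adjusted p = 0.00405 in edgeR). Leptin (Lep) was called higher in the unlabelled gate, by 4.10 on the log2 scale (adjusted p = 0.00144 in edgeR), at 39.5 and 172 against 159 and 150.5 CPM. Adiponectin (Adipoq) and perilipin 1 (Plin1), which define adipocytes, stood at 0 and 0.322 against 3.33 and 1.09 CPM and at 0 and 0.460 against 0.927 and 0.644 CPM. Of the 25 lipid synthesis genes, 17 were called lower and 3 higher than in brown adipocytes, beside the same 19.9% and 17.3% of all genes. The 3 were Btn1a1, a coat protein of the milk fat globule, Fabp3 and the fatty acid carrier Slc27a3.

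A few housekeeping genes stood far apart between the tissues. Gapdh stood at 674 to 1258 CPM in the GFP-negative cells and at 7.38, 16.9, 14.1 and 13.2 CPM in the brown adipocytes, and Actg1 at 2585 to 3586 CPM against 9.61, 9.57, 56.6 and 23.3 CPM. They share 53.3% and 61.1% of their 31-base words with transcripts of other genes. The reverse held for mt-Co2, mt-Co3 and mt-Atp6, neighbours on the mitochondrial chromosome, at 6.25 to 38.8 CPM in the GFP-negative cells and at 13904 to 80549 CPM in the brown adipocytes, whereas mt-Cytb differed far less (3291 to 5385 CPM against 21457 to 74294 CPM). The shared part is 100% for mt-Co2 and mt-Co3, 98.5% for mt-Atp6 and 7.14% for mt-Cytb. These genes were chosen after their values were seen. Among the 11821 nuclear protein-coding genes with at most 5% shared sequence, 17.7% were called higher and 16.3% lower, close to the 17.3% and 19.9% of all genes. Among the 1140 with over 20% shared sequence the shares were 32.4% and 14.8%. How reads with several matches were counted is not given in the sources used here, and its part was not tested.

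The difference between the lines was then measured in the unlabelled cells alone, which carry no GFP. No gene of 15071 was called in edgeR's quasi-likelihood test on the 4 libraries (0%), and the smallest adjusted p was 0.303. At an unadjusted p under 0.05 there were 1542 genes, 760 higher in the Ucp1 line (5.04%) and 782 higher in the Myf5 line (5.19%). The median log2 difference (Ucp1 minus Myf5) over all genes was 0.02, and 26.8% of genes lay above in both Ucp1 libraries and 22.9% above in both Myf5 libraries. The count of calls depended on the tool and the libraries: limma-voom called 0 and DESeq2 461 (207 higher in the Ucp1 line, 1.37%, and 254 in the Myf5 line, 1.69%). It was 2843 without the first and 8867 without the second Myf5 library, where the single Myf5 library is assumed to vary like the Ucp1 pair, and 1 and 0 without the first and second Ucp1 library. The values below are therefore given as levels in each library, and no gene or list is said to have changed. Line and any batch of sorting or library preparation cannot be told apart.

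The genes with the smallest p and higher levels in the Ucp1 line were led by fibrillar collagens, the main proteins of connective tissue matrix. Col3a1 (chr1:45311538-45349706, mm10) stood at 143 and 199 CPM in the Myf5 line and 1775 and 1413 CPM in the Ucp1 line, a log2 difference of 3.22 (SE 0.378). Col1a2 (chr6:4504814-4541544) stood at 79.0 and 90.5 against 763 and 634 CPM (log2 3.04, SE 0.342). Col1a1 (chr11:94936224-94953042) stood at 75.7 and 53.1 against 559 and 475 CPM (log2 3.01, SE 0.374). All 3 collagens were several times higher in both Ucp1-line libraries, with close values within each line, which a choice by smallest p favours. Pdgfrb, the receptor by which pericytes are recruited to vessels, stood at 50.8 and 43.8 against 303 and 247 CPM (log2 2.54, SE 0.344). Cd248, also called endosialin, a stromal surface protein, stood at 10.3 and 16.0 against 84.9 and 92.7 CPM (log2 2.75, SE 0.395). The mesenchymal transcription factor Twist1 was low in the Myf5 line at 1.38 and 1.06 CPM and stood at 13.1 and 13.8 CPM in the Ucp1 line. Itga7, a laminin receptor of muscle, Vstm4, Egflam and the stress-induced cytokine Gdf15 completed the 10, with log2 differences of 2.74, 2.63, 2.43 and 2.96.

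The genes with the smallest p and higher levels in the Myf5 line held 5 ribosomal protein genes and the ribosomal protein retrogene Rps27rt, described below. Rps27rt shares 91.4% of its 31-base words with transcripts of other genes, so that its own level is uncertain. Of the others, the metallothionein Mt1 (chr8:94179082-94180327), which binds zinc and copper, stood at 1471 and 1731 CPM in the Myf5 line and 224 and 191 CPM in the Ucp1 line (log2 -2.95, SE 0.339). Enc1 (chr13:97241105-97253034), an actin-associated protein, stood at 284 and 158 against 12.6 and 15.6 CPM (log2 -3.97, SE 0.462). Cd14, a co-receptor for bacterial lipopolysaccharide, stood at 691 and 534 against 97.2 and 97.2 CPM (log2 -2.66, SE 0.342). These 3 lay above in both Myf5-line libraries by 4-fold or more. mt-Atp8, a subunit of the mitochondrial ATP synthase, stood at 239.5 and 335 against 33.2 and 34.0 CPM (log2 -3.10, SE 0.368). All 20 genes had the same adjusted p of 0.303 in edgeR, and DESeq2 called all 20. All 20 kept their sign in each alternative fit in which they had a value. The 20 were chosen by smallest p and no overlap in these same libraries. Neither the DESeq2 calls nor the kept signs are therefore independent evidence.

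**Figure D2:**
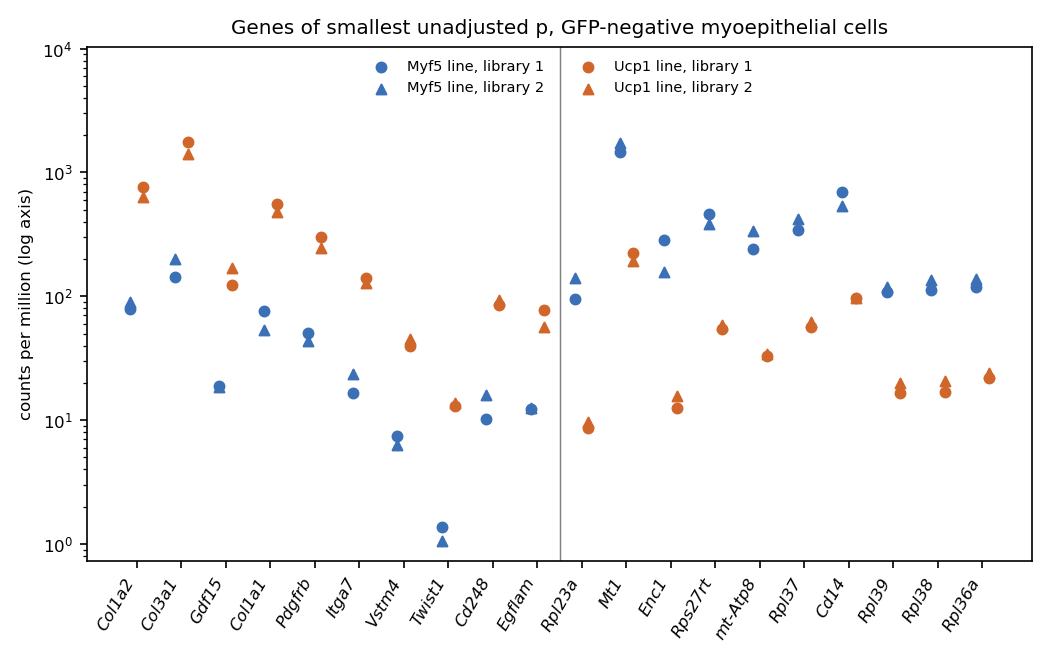
CPM (log axis) of the 20 genes with the smallest unadjusted p and no overlap, 10 per direction, in each GFP-negative library (blue, Myf5 line, and orange, Ucp1 line, with circles for library 1 and triangles for library 2). Values run from Twist1 at 1.06 CPM to Col3a1 at 1775 CPM. Library pairs lie apart from the other line because the genes were chosen for this.

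Marker lists for stromal and mural cells lay higher in the Ucp1 line. Of 12 pericyte markers, 10 lay above in both Ucp1 libraries and 0 in both Myf5 libraries, beside 26.8% and 22.9% of all genes, with a median log2 difference of 1.48. They summed to 967 and 655 CPM in the Myf5 line and 2074 and 2113 CPM in the Ucp1 line. Notch3, the Notch receptor of vascular smooth muscle, stood at 25.2 and 26.1 against 147 and 108 CPM (log2 2.31, SE 0.357), and the potassium channel subunit Abcc9 at 39.7 and 29.8 against 159.9 and 121 CPM (log2 2.02, SE 0.37). The most abundant marker, Rgs5, which dampens G protein signals in pericytes, stood at 519 and 321 against 719.9 and 732 CPM (log2 0.79, SE 0.368). Among the markers named here, Notch3, Abcc9 and Rgs5 were each higher in both Ucp1-line libraries, from under 2-fold for Rgs5 to over 4-fold for Notch3. In the whole list, 2 markers overlapped between the lines.

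The fibroblast markers were uneven. Of 16, 9 lay above in the Ucp1 line and 0 in the Myf5 line, beside 26.8% and 22.9% of all genes (median log2 1.06). The collagens carried the largest values, whereas the proteoglycan decorin (Dcn) stood at 543 and 259 CPM in the Myf5 line and 583 and 437 CPM in the Ucp1 line, which overlap, and Pdgfra, the receptor that marks fibroblasts and fat precursors, at 16.1 and 6.25 against 34.7 and 15.8 CPM, which also overlap. The most abundant gene of the list was gelsolin (Gsn), which severs actin filaments and is made by many cell types, at 1501 and 799 against 2833 and 2031 CPM. The list summed to 3734 and 2241 CPM in the Myf5 line and 7796 and 6433 CPM in the Ucp1 line. Skeletal muscle markers were low in every library: the list summed to 52.9 and 37.1 CPM in the Myf5 line and 134 and 164 CPM in the Ucp1 line. Of its 12 tested genes 9 lay above in the Ucp1 line and 1 in the Myf5 line, beside 26.8% and 22.9% of all genes (median log2 2.44). Des, an intermediate filament that pericytes and smooth muscle also carry, had the highest level among the members named here, at 17.6 and 16.0 against 75.8 and 109.9 CPM (log2 2.47, SE 0.376). Myod1, the muscle determination factor, had 0 counts in both Myf5-line libraries and stood at 3.49 and 1.84 CPM in the Ucp1 line, while Myog, Myf6 and Pax7 stayed below 1 CPM.

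The same lists did not lie the same way in the GFP-positive cells of these lines. There 0 of 12 pericyte markers lay above in the Ucp1 line and 7 in the Myf5 line, and 16 of 16 fibroblast markers lay above in the Myf5 line, beside 15.7% and 31.2% of the same 15071 genes. The Ucp1 GFP-positive libraries detected only 10909 and 10560 genes. The GFP-positive fibroblast list summed to 46915 and 41549 CPM in the Myf5 line, above all 4 GFP-negative libraries, and to 2080 and 926 CPM in the Ucp1 line. Whether removing labelled cells from the gate set the stromal level of the GFP-negative cells was not tested.

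The contractile genes, which define myoepithelial cells, lay near the background. Of 17, 3 lay above in the Ucp1 line and 4 in the Myf5 line, beside 26.8% and 22.9% of all genes, and their median log2 of -0.28 ran from -0.57 to 0.54 when 1 library was left out. Those in the Ucp1 line were Des, Vcl, which anchors actin at adhesions, and Myocd, the smooth muscle co-activator, at 0.148 and 0.690 against 3.36 and 1.93 CPM. Those in the Myf5 line were Cnn1, Mylk, Cald1 and Lmod1, of which Lmod1 had the largest difference at 88.1 and 130.3 against 36.6 and 43.2 CPM (log2 -1.45, SE 0.37). Myh11, the smooth muscle myosin heavy chain, stood at 961 and 4467 CPM in the Myf5 line and 2430.4 and 1905 CPM in the Ucp1 line, with the Myf5 libraries on either side. The contractile sum, 13218 and 27591 CPM in the Myf5 line, also spanned the Ucp1-line sums of 16348 and 18662 CPM.

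Among 21 tested basal genes, 4 lay above in the Ucp1 line and 5 in the Myf5 line, beside 26.8% and 22.9% of all genes, and the median log2 of -0.22 ran from -0.55 to 0.53 when 1 library was left out. The keratins Krt17 and Krt15 were among the 5, Krt17 at 1095 and 1439 against 481 and 459.6 CPM (log2 -1.43, SE 0.329) and Krt15 at 614 and 993 against 169 and 270.1 CPM (log2 -1.87, SE 0.432). Krt5 and Krt14 overlapped. Procr, the protein C receptor, stood at 54.4 and 47.7 against 158 and 123 CPM, and the T-box factor Tbx2 at 2.47 and 25.1 against 84.0 and 88.6 CPM. Both lay above in the Ucp1 line, and Tbx2 was lowest in the first Myf5 library. Basement membrane genes had a median of 0.20, with 6 of 19 above in the Ucp1 line and 0 in the Myf5 line, beside the same 26.8% and 22.9% of all genes. Among the 6 were collagen IV (Col4a1) at 521 and 1731 against 2391 and 2353 CPM and perlecan (Hspg2) at 76.0 and 47.2 against 250.3 and 290.1 CPM (log2 2.13, SE 0.391). In contraction signalling, Oxtr overlapped, the vasopressin receptor Avpr1a stood at 6.26 and 4.14 CPM in the Myf5 line and 20.9 and 23.8 CPM in the Ucp1 line, and Gnaq, the G protein subunit that couples Oxtr to phospholipase C, at 189.5 and 133 against 42.8 and 38.6 CPM (log2 -1.99, SE 0.362).

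Of 15 milk protein genes, 5 lay above in the Ucp1 line and 2 in the Myf5 line, beside 26.8% and 22.9% of all genes (median log2 0.13, -0.24 to 0.82 when 1 library was left out). The caseins Csn2, Csn1s2a and Csn3 overlapped. Glycam1, a mucin-like milk protein, stood at 221 and 247 CPM in the Myf5 line and 882 and 1324 CPM in the Ucp1 line (log2 2.23, SE 0.367), the largest difference of the list. Of 25 milk lipid genes, 11 lay above in the Ucp1 line and 2 in the Myf5 line, beside 26.8% and 22.9% of all genes (median log2 0.26). The most abundant, the fatty acid transporter Cd36, stood at 11248 and 6095 CPM in the Myf5 line and 4825 and 4675 CPM in the Ucp1 line, and lipoprotein lipase (Lpl) at 890.3 and 470.2 against 1083 and 1006 CPM, so that these uptake genes lay in opposite directions. The fatty acid desaturase Scd1 stood at 222 and 139 against 678 and 868 CPM (log2 2.10, SE 0.394), and Acly, which makes cytosolic acetyl-CoA, at 277 and 218 against 459 and 458 CPM. Luminal markers had a median of 0.20, with 6 of 21 above in the Ucp1 line and 3 in the Myf5 line, beside 26.8% and 22.9% of all genes, the latter including Wfdc18, of the whey acidic protein family, at 1501 and 725 against 359.5 and 506 CPM.

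**Figure D3:**
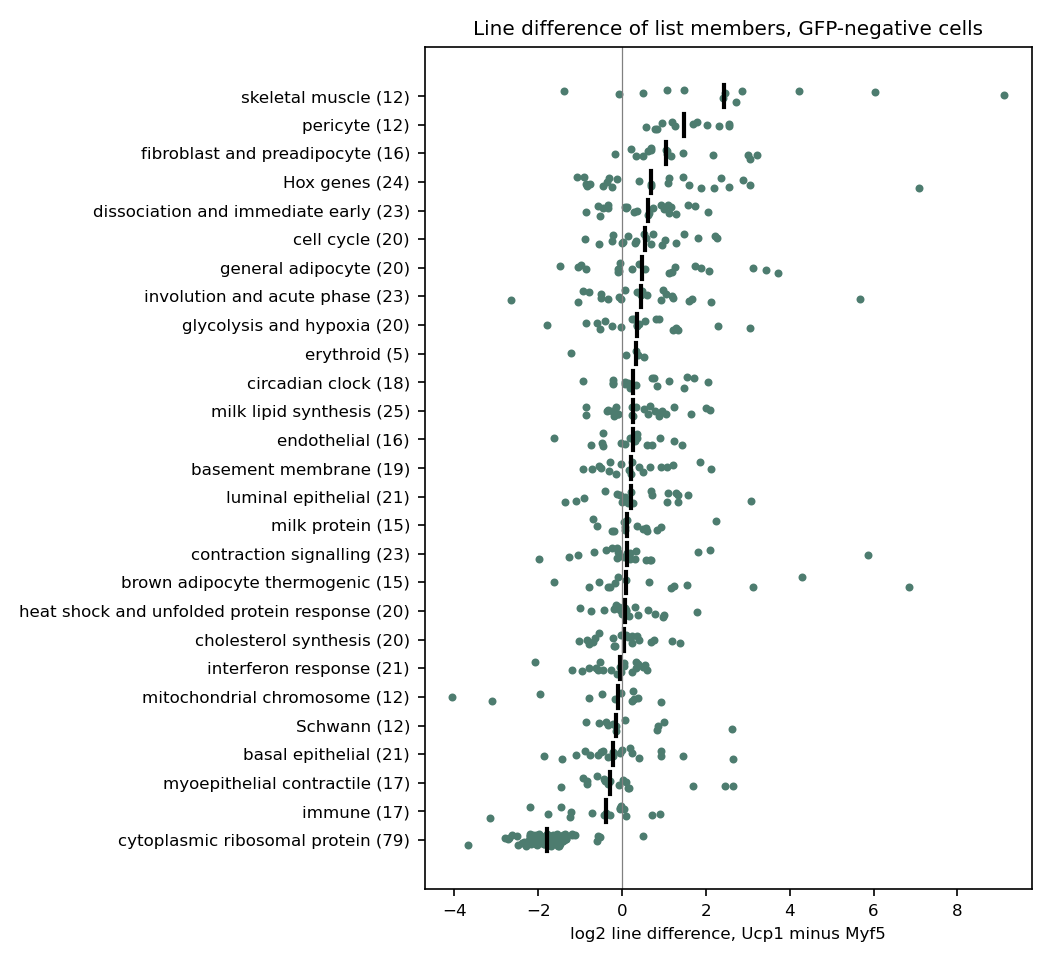
Log2 line difference (Ucp1 minus Myf5) of each tested member (points) of the 26 gene lists and the ribosomal protein genes in the GFP-negative cells, with the list median (bar) and the number of members tested. Ribosomal protein genes lie apart at a median of -1.78, and the skeletal muscle, pericyte and fibroblast lists at 2.44, 1.48 and 1.06, beside the 0.02 of all genes. A member with 0 counts in a line has a fitted value that depends on the prior count.

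Cytoplasmic ribosomal protein genes lay nearly all on 1 side, in a list added after the values were seen. These proteins build the subunits of the ribosome, and their RNAs typically start with a pyrimidine tract through which their translation is controlled together. Of 79 genes tested, 78 lay above in both Myf5-line libraries, beside 22.9% of all genes, and the median log2 difference was -1.78, or 3.43-fold. Together they took 3.17% and 3.34% of counts in the Myf5 line and 1.02% and 1.13% in the Ucp1 line. Rpl23a stood at 95.9 and 139 CPM in the Myf5 line and 8.60 and 9.69 CPM in the Ucp1 line (log2 -3.68, SE 0.397). Rpl37 stood at 345 and 421 against 56.2 and 61.8 CPM (log2 -2.70, SE 0.339). For both genes the 2 lines were well apart beside the spread within each line, and both were named by smallest p and no overlap. DESeq2 called 73 of the 79 as higher in the Myf5 line, beside 1.69% of all genes, and edgeR called 0.

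The first 20 transcribed bases and the 10 before them are shown for those of the named ribosomal protein genes found in the promoter table, since the tract lies there. Runs of 5 or more pyrimidines are in capitals. Rps27rt, a retrogene copy of a ribosomal protein gene, lies on the minus strand at chr9:114982720-114982749, Rpl37 on the plus strand at chr15:5116603-5116632, Rpl38 on the plus strand at chr11:114668570-114668599, Rpl39 on the minus strand at chrX:37085203-37085232 and Rpl36a on the plus strand at chrX:134585644-134585673.
Rps27rt: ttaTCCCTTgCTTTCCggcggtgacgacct
Rpl37: cctgggcggaagcttatccacaggaagtgg
Rpl38: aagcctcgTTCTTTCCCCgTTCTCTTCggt
Rpl39: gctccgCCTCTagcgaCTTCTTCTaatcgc
Rpl36a: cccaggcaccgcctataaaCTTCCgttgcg
By the RefSeq start, a run covers the first transcribed base in Rps27rt, Rpl38 and Rpl39, and in Rpl39 it ends on that base. A run lies farther in for Rpl36a and is not found in this window of Rpl37. These readings depend on the annotated start. The GENCODE start of Rpl37, at chr15:5116645, lies outside its window, so that a tract there would not be seen. The GENCODE gene starts of Rpl38, at chr11:114668524, and of Rpl39, at chrX:37085402, also lie outside their windows. The runs shown for Rpl38 and Rpl39 thus hold for the RefSeq start only. Of 60 ribosomal protein genes in the table, 14 (23.3%) start at a C that 4 pyrimidines follow, read on the transcribed strand, against 3.01% of all 27025 genes. Of the list members shown, Rpl38 does.

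The GFP-positive cells of the gate lay the same way and the brown adipocytes did not. In the GFP-positive myoepithelial cells, 74 of the 79 lay above in both Myf5-line libraries, beside 31.2% of all genes, and they took 4.14% and 2.17% of counts in the Myf5 line and 1.41% and 0.680% in the Ucp1 line. In the brown adipocytes 56 lay above in the Ucp1 line, beside 34.8% of all genes, and 2 in the Myf5 line, beside 25.4%. In the test of the difference between the 2 line effects, 36 of 80 were called lower in the GFP-negative cells, beside 3.37% of 16117 genes. That test called 0 genes when the first Myf5 brown adipocyte library, the first Ucp1 brown adipocyte library or either Ucp1 GFP-negative library was left out.

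**Figure D4:**
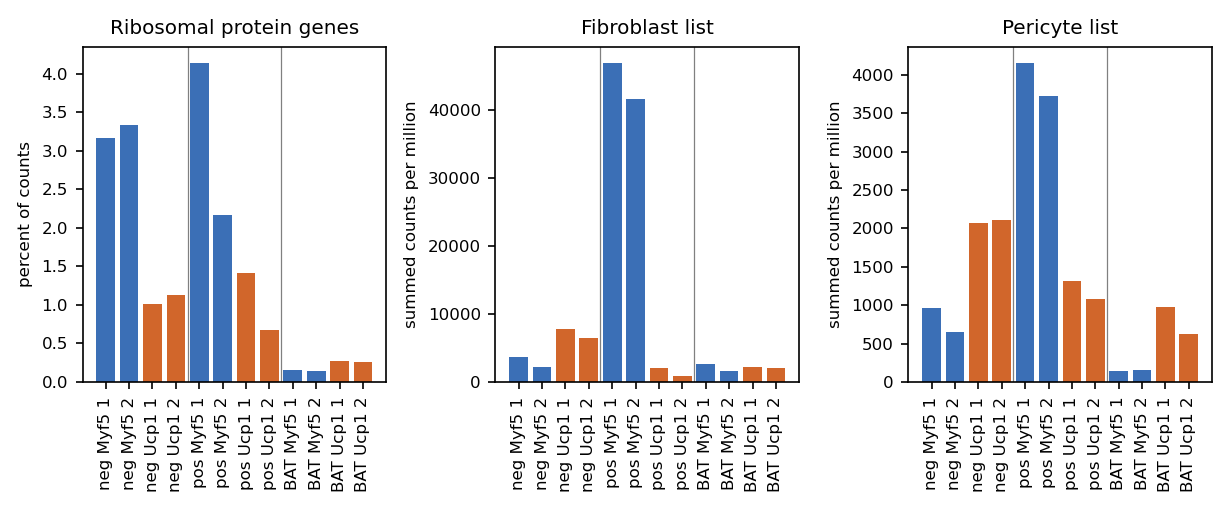
Share of counts taken by ribosomal protein genes (percent) and summed CPM of the fibroblast and pericyte lists in all 12 libraries, GFP-negative (neg), GFP-positive (pos) and brown adipocytes (BAT), with blue for the Myf5 line and orange for the Ucp1 line. The ribosomal share is higher in the Myf5 line among both kinds of mammary cells, at 3.17% and 3.34% against 1.02% and 1.13% in the GFP-negative ones. The fibroblast and pericyte sums are higher in the Ucp1 line among GFP-negative cells and in the Myf5 line among GFP-positive cells.

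Transcript length moved with the ribosomal protein difference. The median log2 difference of the other nuclear protein-coding genes was -0.80 for transcripts of up to 500 bases, -0.49 from 500 to 1000 bases and 0.25 from 3000 to 4000 and from 4000 to 6000 bases. The ribosomal protein genes had a median length of 780 bases. The 827 other genes of up to 1000 bases had a median of -0.52, and 47 of them lay below the ribosomal median. With the trend of each library with length taken out through offsets, an alternative chosen after seeing the data, the ribosomal median was -1.34 and 78 of 79 stayed below 0. With offsets for length and GC content together it was -1.36. GC content moved too, from -0.32 for genes at up to 40% GC to 0.70 above 60%. Shared sequence was a further value: the ribosomal protein genes shared a median of 44.8% of their 31-base words with other genes, among which reads can be split, so that the value of a single member is uncertain. Other genes of up to 1000 bases had a median of -0.36 with no shared sequence (392 genes) and -0.63 with over 20% (177 genes). The part of length, GC content and shared sequence in the ribosomal protein difference was not tested beyond these values.

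**Figure D5:**
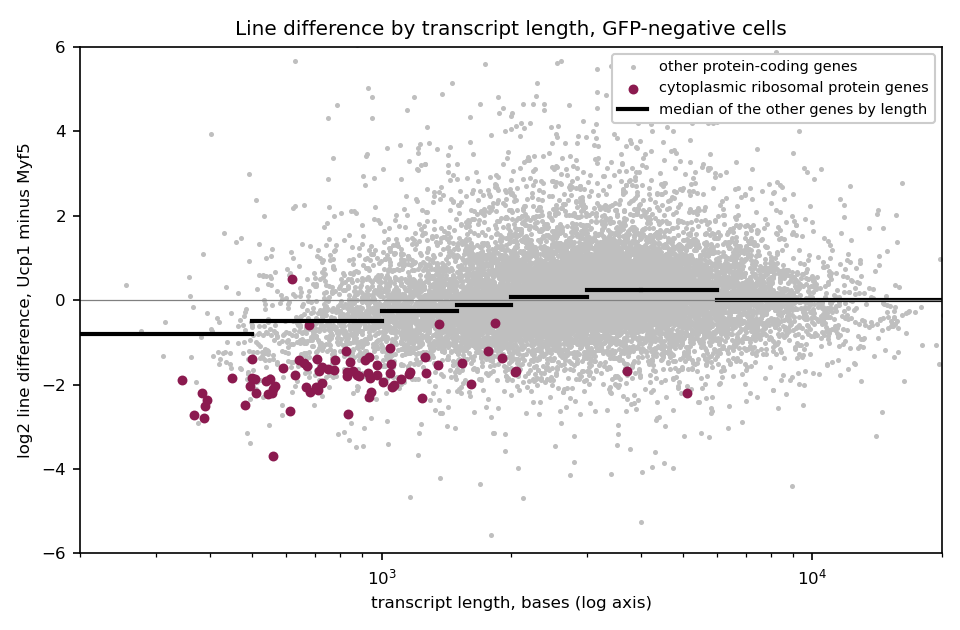
Log2 line difference (Ucp1 minus Myf5) in the GFP-negative cells against transcript length in bases (log axis) for 13747 nuclear protein-coding genes, with 104 more outside the axes. Ribosomal protein genes (dark) lie below the black bars, the medians of the other genes in each length range, which run from -0.80 for the shortest to 0.25.

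Mitochondrial chromosome genes lay in both directions. Of 12 tested, 4 lay above in each line, beside 26.8% of all genes in the Ucp1 line and 22.9% in the Myf5 line (median log2 -0.10). An unadjusted p under 0.05 in edgeR was reached by 3, all with higher values in the Myf5 line, beside 5.19% of all genes in that direction. mt-Cytb, part of respiratory complex III, stood at 4269 and 3291 against 4479 and 5385 CPM. mt-Nd1, part of complex I, stood at 2624 and 1538 against 1677 and 2004 CPM, and the lines overlapped. The 3 were mt-Atp8, described above, mt-Atp6 at 10.6 and 38.8 against 6.52 and 6.25 CPM, and mt-Nd3 at 72.2 and 1.70 against 2.17 and 2.29 CPM, which was high in the first Myf5 library alone. Of their 31-base words, mt-Atp6 and mt-Nd3 share 98.5% and 96.9% with transcripts of other genes, so that their own levels are uncertain. For mt-Atp8 the shared part is 5.56%.

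Among brown fat and adipocyte genes, the larger differences named here lay in genes at 17.3 CPM or less. Of 15 tested thermogenic genes, 7 lay above in the Ucp1 line and 1 in the Myf5 line, beside 26.8% and 22.9% of all genes (median log2 0.10). The potassium channel Kcnk3 stood at 1.04 and 0.873 CPM in the Myf5 line and 8.76 and 7.98 CPM in the Ucp1 line (log2 3.13, SE 0.541). Of 20 general adipocyte genes, 9 lay above in the Ucp1 line and 3 in the Myf5 line, beside 26.8% and 22.9% of all genes (median log2 0.48, 0.21 to 1.15 when 1 library was left out), with adipsin (Cfd) at 0.197 and 2.39 against 17.3 and 10.7 CPM. Fabp4 and the adipocyte regulator Pparg were among the 3 above in the Myf5 line, Pparg at 761 and 407 against 269 and 296 CPM (log2 -1.05, SE 0.411). Endothelial genes had a median of 0.26, with 6 of 16 above in the Ucp1 line and 2 in the Myf5 line. Immune genes had a median of -0.37, with 2 of 17 above in the Ucp1 line and 6 in the Myf5 line, both lists beside the same 26.8% and 22.9% of all genes.

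Immediate early genes, which dissociation of tissue is known to induce, had 10 of 23 members above in the Ucp1 line and 4 in the Myf5 line, beside 26.8% and 22.9% of all genes (median log2 0.62). Egr1 stood at 1506 and 3399.8 CPM in the Myf5 line and 6485 and 5512 CPM in the Ucp1 line, and the nuclear receptor Nr4a1 at 681 and 597 against 1273 and 1486 CPM. The list summed to 20654 and 31577 CPM in the Myf5 line and 42211 and 43069 CPM in the Ucp1 line. The Ucp1-line libraries were thus above both Myf5-line libraries in this sum as in the fibroblast and pericyte sums, and its part in those differences was not tested.

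In the brown adipocytes of the same lines, 755 of 13154 genes were called between the lines in edgeR, 608 higher in the Ucp1 line (4.62%) and 147 in the Myf5 line (1.12%). The count was 0 without the first Ucp1 library and with the replicate block. Without the second Ucp1 library it was 2963, and the balance turned, with 1226 higher and 1737 lower in the Ucp1 line. It was 1382 and 1786 without the first and second Myf5 library. No gene was called in both tissues, which follows from the 0 calls in the GFP-negative cells. The difference between the 2 line effects was called for 647 of 16117 genes, 104 higher (0.645%) and 543 lower (3.37%) in the GFP-negative cells. It was called for 0 genes with any of the 4 libraries named above left out, and for 2678, 1378 higher and 1300 lower, without the second Myf5 GFP-negative library. Without the first it was called for 223, and without the second Ucp1 brown adipocyte library for 1044. Near the driver loci, 25 tested genes lay within 5 Mb of Myf5 on chromosome 10, of which 8 lay above in each line. Within 5 Mb of Ucp1 on chromosome 8 lay 97 tested genes, of which 20 lay above in the Ucp1 line and 22 in the Myf5 line (median log2 0.09). Both windows stand beside 26.8% and 22.9% of all genes above in the Ucp1 and the Myf5 line.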

How the data were processed

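RNA-seq was made from 12 libraries in 6 groups of 2, with RNeasy Micro and SMART-Seq v4 Ultra Low Input on an Illumina HiSeq, per the labels' protocols. The deposited values are raw counts per gene (38924 genes). The submitters' processing notes name TopHat, HTSeq, DESeq2 and mm10. For their versions, the annotation, the strand setting and reads that match several places, the entry is: not given in the sources used here. Symbols, lengths and positions came from GENCODE M21 (37607 genes matched), and promoters from RefSeq (GRCm38.p6, 250 bases before to 50 after the start).

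The members and lists were chosen with earlier results of these data known. The lists hold 499 distinct entries, of which 496 were found, and the ribosomal protein list was added after the values were seen. Line differences were tested in edgeR 4.0.16 (R 4.3.3, TMM, filterByExpr at 10 counts, quasi-likelihood test, Benjamini-Hochberg, threshold 0.05) on the 4 libraries of a tissue. The difference of line effects and the contrast with brown adipocytes used 8 libraries. Genes lay "above" in a line when both of its libraries exceeded both of the other. The fits were tested on simulated counts. Alternatives used DESeq2 1.42.0, limma 3.58.1, other scalings and filters, a replicate block and each library left out. Genes were named from the 10 smallest p per direction with at least 10 CPM and no overlap, the 20 highest levels, and 2 to 4 members per list. Members of the contractile, contraction signalling, basal, milk protein, thermogenic, general adipocyte and Hox lists could all be named, and other list members named were chosen after their values were seen. A list's median was also taken with members at 0 counts in a line set at a bound of 3 counts per library.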

Additional observations from a re-analysis of the deposited data

Results flagged for a closer look

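The line effect (Ucp1 minus Myf5) in the GFP-negative cells differed from that in the brown adipocytes for 647 genes in the edgeR test of the difference itself, 104 higher and 543 lower in the GFP-negative cells. The count was 0 without the first Myf5 or first Ucp1 brown adipocyte library or either Ucp1 GFP-negative library, and 2678 (1378 higher and 1300 lower) without the second Myf5 GFP-negative library. Of the 20 genes named for the line comparison, 12 were among them. In the Ucp1 direction the difference of the 2 line effects was 3.75 on the log2 scale for Col1a2, 4.16 for Col3a1, 4.02 for Itga7 and 4.25 for Twist1. In the Myf5 direction it was -3.07 for Mt1, -3.96 for Enc1, -5.31 for Rps27rt, -4.71 for mt-Atp8, -4.15 for Rpl37, -3.20 for Rpl39, -4.21 for Rpl38 and -3.13 for Rpl36a. These genes were named for their line difference in the GFP-negative cells, so that these values are no independent evidence of it. The value of Rps27rt is also uncertain, since 91.4% of its 31-base words are shared with other genes.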

How the results depend on the processing

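The line comparison in GFP-negative cells called 0 genes in edgeR, 461 in DESeq2, and 0 to 8867 when 1 library was left out. A replicate block, whose numbers are shared labels only and did not deviate together (r = -0.0878), gave 224. In brown adipocytes the 755 calls became 2785 in DESeq2, 3218 with no filter, 0 with the replicate block, 1999 with the crossed pairing (r = -0.106), and 0 to 2963 with 1 library left out. The difference of line effects, 647 calls, gave 2176 in DESeq2, 241 with the replicate block and 0 to 2678 with 1 library left out. The contrast with brown adipocytes, 5987 calls, gave 5051 with the replicate block, 7989 in DESeq2 and 4100 to 6838 with 1 library left out. Of 82 named genes, 14 and 12 had a log2 line difference of the other sign without the first and second Myf5 library. The number was 7 and 3 without the first and second Ucp1 library, 11 with length and GC offsets and 8 with length offsets. It was 3 each in limma-voom, the replicate block and both wider fits. None of the 20 with the smallest p was among them, which their choice for no overlap in these same libraries largely fixed in advance. Past the threshold the sign turned, without the second Myf5 library, for Myh11 (-1.04 to 1.19 over the libraries left out), Oxtr (-0.97 to 1.32), Socs3 (-0.61 to 0.83) and Hoxd9 (-0.75 to 0.61). List medians with 1 library left out ran from 1.12 to 2.09 for pericyte, 0.69 to 1.66 for fibroblast, -0.57 to 0.54 for contractile, -0.55 to 0.53 for basal and -0.24 to 0.82 for milk protein genes, so that the last 3 have no stable sign. The cause of these shifts was not tested. Milk protein and mitochondrial lists have no value where their genes were removed. With 2 libraries a group, counts measure reads and not animals, and low genes cannot be resolved. In the GFP-negative libraries 3 counts equal 0.0968 to 0.143 CPM of the total counts, before the TMM factors of 0.921 to 1.04.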

Other observations

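Hox genes record position along the body axis. Of 25 tested, 3 were called higher and 8 lower in the GFP-negative cells than in brown adipocytes in edgeR, beside 17.3% and 19.9% of all genes. The 3 were Hoxd8 at 159 and 236 against 151 and 214 CPM, Hoxd9 at 46.8 and 119 against 60.3 and 80.8 CPM, and Hoxd10 at 77.7 and 35.6 against 24.3 and 37.7 CPM (Myf5 line first). All lay above the brown adipocyte libraries, where Hoxd10 had 0 counts. Among the 8 lower were Hoxa5 and Hoxc5, at 3.01 and 12.8 against 26.3 and 31.6 CPM and at 0 and 1.56 against 4.03 and 4.12 CPM, with 42.3, 53.4, 61.3 and 48.9 and 35.1, 52.2, 12.8 and 28.1 CPM in the brown adipocytes (Myf5 line first). Between the lines 11 of 24 lay above in the Ucp1 line and 5 in the Myf5 line, beside 26.8% and 22.9% of all genes (median log2 0.69), mostly at a few CPM.

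The remaining lists were compared between the lines in the GFP-negative cells, where 26.8% of all genes lay above in the Ucp1 line and 22.9% in the Myf5 line. Clock genes had a median log2 of 0.27 (7 of 18 above in the Ucp1 line and 1 in the Myf5 line), with Bhlhe40 at 601 and 438 against 473 and 419.9 CPM and the repressor Cry2 at 11.2 and 14.7 against 42.4 and 42.3 CPM. Involution and acute phase genes had a median of 0.45 (9 and 5 of 23), with the NF-kappa-B inhibitor Nfkbia at 4067 and 3009 against 1749 and 1698 CPM and the acute phase protein Lcn2 at 468 and 420.3 against 216 and 253 CPM. Glycolysis and hypoxia genes had a median of 0.36 (9 and 6 of 20), and cell cycle genes 0.54 (7 and 1 of 20) at low levels, with Mki67 at 3.06 and 12.3 against 10.3 and 9.11 CPM. The medians were 0.04 for cholesterol synthesis (3 and 4 of 20), 0.08 for heat shock (4 and 3 of 20), -0.06 for interferon response (4 and 5 of 21), 0.34 for erythroid (1 and 1 of 5) and -0.15 for Schwann genes (3 and 1 of 12). Hemoglobin RNA was present, with Hbb-bs at 127 and 166 against 188 and 126 CPM.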
